A study of Homo sapiens with 18 samples.

Results

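The 55 genes described here encode proteins of DNA replication and cell division. They were chosen by symbol, with earlier results of these data known. Of the 55, 26 act in or just before S phase (S-phase members) and 29 act in mitosis or drive the mitotic programme (mitotic members). They are 55 of 60623 genes in the deposited table, and all 55 passed the filter on low counts that left 17851 genes for testing. RNA was sequenced from THP-1 cells, an established human leukaemia line of the monocyte lineage, that 24 h of 100 nM PMA, a phorbol ester, had turned into macrophages. 3 lines were compared, and each spent 48 h in mock medium or with 50% of medium taken from SW620, an established line of colorectal cancer. EV cells carried an empty vector, S5 cells were labelled as expressing Siglec-5 and S14 cells as expressing Siglec-14, receptors on myeloid cells that bind sialic acid. The 6 groups, EV mock, S5 mock, S14 mock, EV CM, S5 CM and S14 CM, held 3 libraries each, numbered 1, 2 and 3, so that 18 libraries were compared. All groups shared the THP-1 background and the PMA step. The vector, its promoter, whether a line was 1 clone, and whether the replicates came from separate cultures are details that no label gives. P-values therefore measure the spread between these libraries, which may be technical.

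Proliferating cells pass from G1 into S phase when cyclin E and CDK2 release E2F transcription factors from the retinoblastoma protein, and E2F-driven genes then supply the helicase, the polymerases and the nucleotides for replication. The genes of mitosis peak later, in G2 and M phase, and are driven by FOXM1 and by MYBL2 bound to the MuvB complex. PMA is known to take THP-1 cells out of the cell cycle as they become macrophages. In RNA from bulk cultures, fewer cycling cells and less RNA of these genes per cycling cell cannot be told apart.

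Sites known from cell cycle promoters were counted before the start of each member, and a few windows are printed because the members of a class moved together in these libraries. RefSeq promoters (build GRCh38.p14) were found for 45 of the 55 members, 22 S-phase and 23 mitotic. The 250 bases before the start were searched on both strands. The E2F-type site, searched as TTTCCCGC, TTTCGCGC, TTTGCCGC or TTTGGCGC, was present in 13 of 22 S-phase promoters (59.1%), in 1 of 23 mitotic promoters (4.35%) and in 2.79% of 27305 promoters of all genes. The CHR-type element of cell cycle genes, searched as TTTGAA or TTCGAA, was present in 12 of 23 mitotic promoters (52.2%), in 2 of 22 S-phase promoters (9.09%) and in 14.6% of all. The CCAAT box was found in 72.7% of the S-phase, 78.3% of the mitotic and 33.0% of all promoters. A match is a description of the sequence and not evidence that a factor binds there. In the 3 S-phase promoters below, capitals mark E2F-type sites and CCAAT boxes. Each window holds 100 bases, ends before the first exon base of the GENCODE 29 models and reads 5′ to 3′ along the gene.
E2F1: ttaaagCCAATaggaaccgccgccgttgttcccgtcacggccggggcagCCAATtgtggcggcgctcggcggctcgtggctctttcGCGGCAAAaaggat
PCNA: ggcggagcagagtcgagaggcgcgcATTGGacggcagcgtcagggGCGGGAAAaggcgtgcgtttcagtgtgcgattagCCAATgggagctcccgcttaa
MCM6: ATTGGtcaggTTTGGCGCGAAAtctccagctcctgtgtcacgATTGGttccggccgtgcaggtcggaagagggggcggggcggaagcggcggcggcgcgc
The E2F1 window lies at chr20:33686405-33686504 (reverse strand), the PCNA window at chr20:5126627-5126726 (reverse strand) and the MCM6 window at chr2:135876444-135876543 (reverse strand). In MCM6, TTTGGCGC and GCGCGAAA, the other-strand form of TTTCGCGC, overlap in TTTGGCGCGAAA. In the 4 mitotic promoters below, capitals mark CHR-type elements (TTTGAA, or TTCAAA on the other strand) and CCAAT boxes (CCAAT, or ATTGG on the other strand).
CDC20: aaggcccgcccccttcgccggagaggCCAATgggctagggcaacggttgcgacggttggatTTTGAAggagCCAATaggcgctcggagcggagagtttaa
MKI67: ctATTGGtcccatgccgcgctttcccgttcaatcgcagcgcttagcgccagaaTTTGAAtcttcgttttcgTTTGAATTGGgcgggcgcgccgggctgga
KIF11: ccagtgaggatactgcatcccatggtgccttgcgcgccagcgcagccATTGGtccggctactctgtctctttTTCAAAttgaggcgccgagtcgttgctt
CKS2: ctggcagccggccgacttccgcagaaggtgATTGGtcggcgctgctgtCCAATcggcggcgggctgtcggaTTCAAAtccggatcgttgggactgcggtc
The windows lie at chr1:43358855-43358954 (forward strand) for CDC20, chr10:128126424-128126523 (reverse strand) for MKI67, chr10:92593030-92593129 (forward strand) for KIF11 and chr9:89311095-89311194 (forward strand) for CKS2. In MKI67 the CHR-type element nearest the start overlaps a CCAAT box in TTTGAATTGG. CKS2 is shown because it holds the same elements as the others while its RNA had a different profile.

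Library totals ran from 14962531 to 26045281 counts. The libraries numbered 3 stood apart from the others in every group, and each result is therefore given for each replicate number and with and without them. SIGLEC14 stood at 503 to 926 CPM in the S14 libraries, 29.5 to 44.1 in the S5 and 13.0 to 22.7 in the EV libraries. The table has 2 rows for SIGLEC5, which together held at most 1.15 CPM in any S5 library and at most 1.14 in any EV library, so that the counts bear out the S14 label and do not bear out the S5 label. SIGLEC5 and SIGLEC14 are near-identical in part, and whether reads of SIGLEC5 were lost between its rows was not tested. S5 below therefore means the libraries labelled as expressing Siglec-5. Mitochondrially encoded mRNAs took 3.97 to 4.52% of counts in the libraries numbered 3 and 1.49 to 3.60% in the other 12, with 1.59, 1.49 and 4.52% in S14 mock. All 14 macrophage markers passed the filter, and their summed level lay between 7831 and 13069 CPM, the counts scaled to a common library size with TMM factors. The 14 immature myeloid markers, genes of promonocytes such as MYB and MPO, summed to 886, 835 and 935 CPM in EV mock, 1215, 1007 and 2861 in S5 mock and 369.5, 415 and 263 in S14 mock, replicates 1, 2 and 3 in that order. In conditioned medium the same sums were 840.4, 878 and 699 CPM in EV CM, 1108, 1279 and 2598 in S5 CM and 604, 642 and 315 in S14 CM. Markers of colorectal epithelium, the source of the conditioned medium, summed to 0.479 to 2.23 CPM, and 1 of the 13 passed the filter. The part of these differences in the results below was not tested.

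In replicates 1 and 2 the S14 line held the least RNA of both classes in both media, and in replicate 3 most of that gap was gone for the S-phase members. The mean log2 CPM of the S-phase members was 5.49, 5.35 and 5.90 in EV mock, 4.98, 5.11 and 6.56 in S5 mock and 3.12, 2.96 and 5.80 in S14 mock, for replicates 1, 2 and 3 in that order here and throughout. In conditioned medium it was 5.58, 5.51 and 6.00 in EV CM, 5.10, 5.28 and 6.61 in S5 CM and 3.76, 3.72 and 6.05 in S14 CM. The order in replicates 1 and 2 was EV, S5, S14 from high to low, and in replicate 3 S5 was the highest and S14 lay close to EV. For the mitotic members the mean was 4.23, 3.99 and 5.42 in EV mock, 3.61, 3.64 and 6.05 in S5 mock and 1.42, 1.20 and 4.78 in S14 mock. Their means in conditioned medium were 4.47, 4.44 and 5.80 in EV CM, 4.11, 4.24 and 6.16 in S5 CM and 3.39, 3.33 and 5.10 in S14 CM. S14 was the lowest of the 3 lines in every replicate and medium for the mitotic members. The replicate 3 library lay above replicates 1 and 2 in all 6 groups for both classes.

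**Figure D1:**
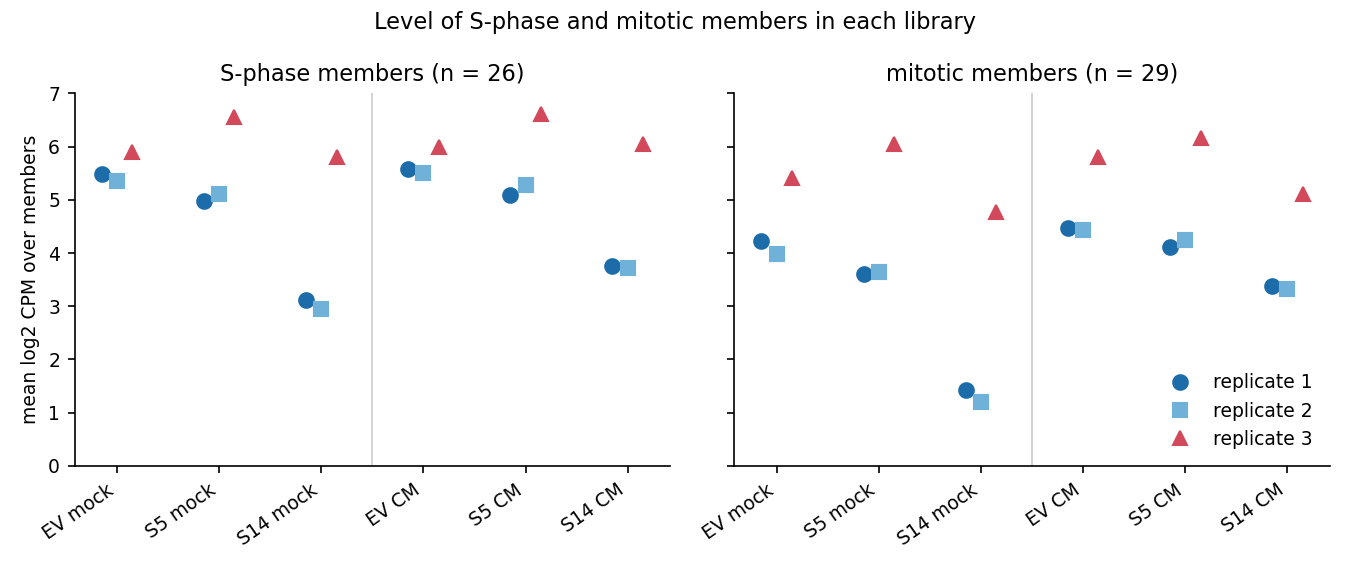
Mean log2 CPM over the 26 S-phase members (left) and the 29 mitotic members (right) in each of the 18 libraries, by group, with the replicate number as symbol and colour. The S14 mock libraries 1 and 2 lie lowest in both panels, at 3.12 and 2.96 on the left and 1.42 and 1.20 on the right, and all replicate 3 libraries lie above the others of their group.

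The members followed this pattern gene by gene. Of the 55 members, 52 had their lowest level in S14 mock replicate 1 or 2 and 53 had their highest in an S5 library numbered 3. In mock medium, the order EV above S5 above S14 was shown by 26 of 26 S-phase and 28 of 29 mitotic members in replicate 1, and by 24 and 27 in replicate 2. In replicate 3 no member showed it in mock medium: S5 was the highest line for all 55, and S14 was the lowest for 16 S-phase and 27 mitotic members. The ratio of a member's highest to its lowest library ran from 2.70 for CDK2, the kinase of cyclin E, to 127 for CDC25C, the phosphatase that activates CDK1, a gene singled out after its values were seen. CDC25C had 3 and 6 raw counts in S14 mock replicates 1 and 2, against 106 in replicate 3, so its ratios in these libraries rest on few reads.

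**Figure D2:**
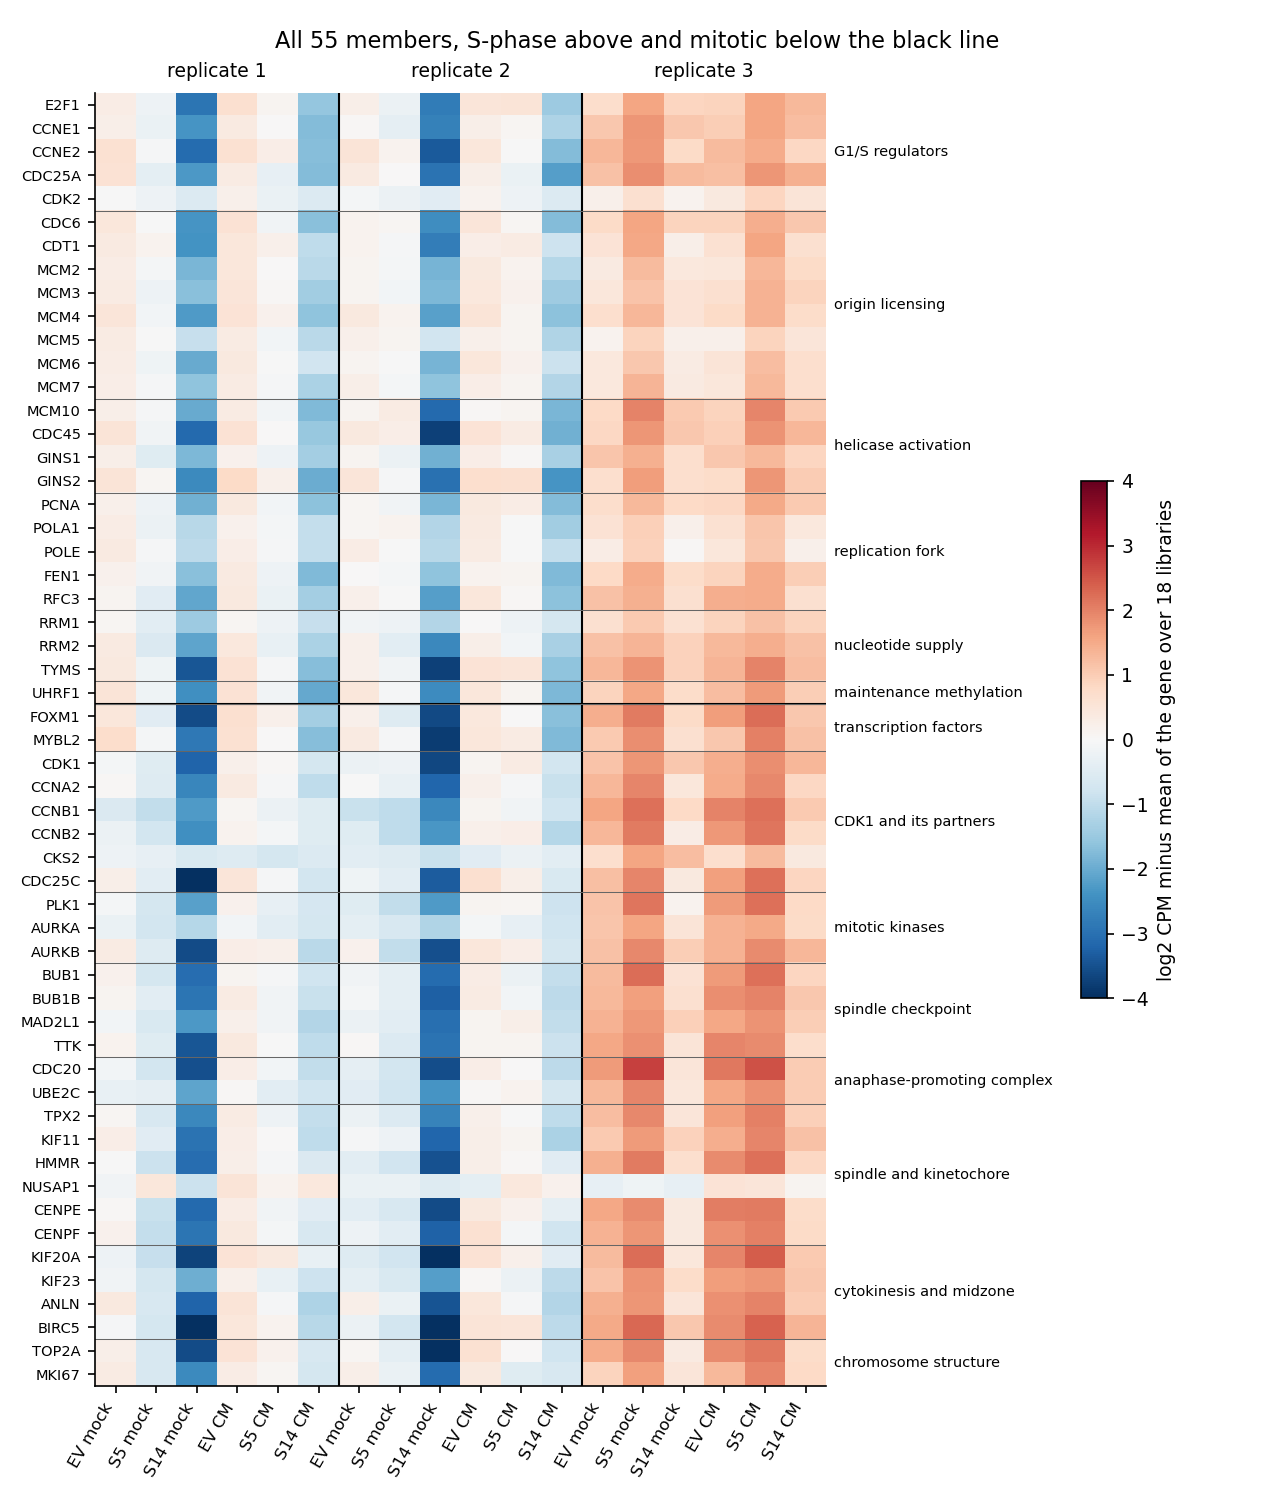
Log2 CPM of each of the 55 members minus its mean over the 18 libraries (colour, cut at -4 and 4), with libraries in columns grouped by replicate number and genes in rows grouped by role. S14 mock in replicates 1 and 2 forms the blue columns, replicate 3 is red in most rows, and NUSAP1 and CKS2 depart from the other mitotic rows.

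Per length, the members ranged widely in EV mock. On the deposited TPM scale, which accounts for transcript length, CDC20 was the highest at 272 ± 209 (mean ± SD, n = 3), ahead of MCM3 at 163 ± 15.7, FEN1 at 130.0 ± 30.7 and MCM7 at 129 ± 3.67. The spread of CDC20 reached across the levels of the other 3, and its first place rests on replicate 3. In replicates 1, 2 and 3 CDC20 stood at 166.5, 136.8 and 513.2 TPM and MCM3 at 175.9, 145.3 and 166.7. NUSAP1, with 0.568 ± 0.0803 TPM, was the lowest, below CENPE with 5.91 ± 4.06 and CDC25C with 6.09 ± 2.79. These 7 were chosen by their rank on this scale.

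The G1/S regulators had the pattern of the class means. E2F1, the transcription factor that switches on replication genes, stood at 38.4, 36.8 and 50.6 CPM in EV mock, 27.0, 26.6 and 93.1 in S5 mock and 4.00, 4.43 and 56.9 in S14 mock. In conditioned medium it stood at 49.0, 43.6 and 57.6 CPM in EV CM, 33.7, 44.7 and 93.7 in S5 CM and 10.6, 11.2 and 77.1 in S14 CM. Its lowest libraries were S14 mock 1 and 2, and the S14 and EV groups overlapped because S14 replicate 3 lay above all EV mock libraries. The edgeR quasi-likelihood test over all 18 libraries gave S14 mock against EV mock a log2 fold change of -0.94 ± 0.91 (SE; adjusted p = 0.506) without the block and -1.78 ± 0.60 (adjusted p = 0.0331) with it, where the block is the replicate number. The block takes the shift of a replicate number as the same in all 6 groups. The interaction test of line by replicate number, given below, did not bear this out for 26 of 26 S-phase and 13 of 29 mitotic members. For those members, the block estimates and p-values here and in the next paragraphs join unlike replicates. CCNE2, which encodes cyclin E2, the partner of CDK2 at S phase entry, measured 41.4, 38.7 and 68.0 CPM in EV mock, 26, 29.7 and 89.5 in S5 mock and 3.12, 2.52 and 46.0 in S14 mock. With conditioned medium its values were 41.0, 37.3 and 64.7 CPM in EV CM, 32.7, 26.6 and 75.1 in S5 CM and 8.26, 8.13 and 47.8 in S14 CM. S14 was the lowest line for CCNE2 in each replicate and medium, yet the groups overlapped, since S14 mock 3 passed EV mock 1 and 2. CCNE2 had the largest difference of the S-phase members between S14 and EV in mock medium, a log2 fold change of -1.52 ± 0.94 (SE; adjusted p = 0.279) without the block and -2.33 ± 0.56 (adjusted p = 0.0058) with it. CDK2 stood at 42.6, 40.8 and 49.8 CPM in EV mock, 37.5, 36.3 and 66.7 in S5 mock and 29.1, 31.2 and 47.4 in S14 mock, and had the smallest difference of the class, -0.31 ± 0.34 (SE; adjusted p = 0.575).

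Origin licensing genes load the MCM helicase onto DNA in G1. CDC6, which loads the helicase ring, stood at 33.7, 27.1 and 42.2 CPM in EV mock, 24.2, 25.7 and 73.3 in S5 mock and 4.73, 4.32 and 45.7 in S14 mock. Its levels in conditioned medium were 36.5, 34.4 and 45.9 CPM in EV CM, 22.4, 25.8 and 66.8 in S5 CM and 7.67, 7.27 and 51.7 in S14 CM. MCM2, a subunit of the ring, stood at 108, 93.5 and 112 CPM in EV mock, 83.8, 83.8 and 213 in S5 mock and 24.6, 23.9 and 117 in S14 mock. Replicates 1 and 2 of S14 were far under EV for MCM2, and replicate 3 of S14 was level with EV. In conditioned medium MCM2 measured 121, 116 and 120.5 CPM in EV CM, 88.7, 97.1 and 221 in S5 CM and 41.1, 40.03 and 149 in S14 CM. CDT1, which brings the ring to the origin, was 36.7, 31.6 and 42.0 CPM in EV mock, 31.3, 27.4 and 84.1 in S5 mock and 5.42, 4.12 and 33.8 in S14 mock, and it had the next largest difference after CCNE2, -1.35 ± 0.69 (SE; adjusted p = 0.189) and -1.83 ± 0.42 (adjusted p = 0.00461) with the block. For CDC6 the log2 fold change of S14 mock against EV mock was -0.91 ± 0.86 (SE; adjusted p = 0.496) without the block and -1.61 ± 0.53 (adjusted p = 0.029) with it. The same comparison gave MCM2 -0.92 ± 0.62 (SE; adjusted p = 0.324) without the block and -1.33 ± 0.39 (adjusted p = 0.0167) with it. CDC45, which joins the ring to make the active helicase, was 15.5, 14.2 and 19.1 CPM in EV mock, 9.73, 13.1 and 36.6 in S5 mock and 1.17, 0.721 and 22.7 in S14 mock. S14 mock 1 and 2 held 24 and 14 raw counts of CDC45 against 466 in S14 mock 3. Its levels in conditioned medium were 15.9, 15.8 and 20.8 CPM in EV CM, 10.8, 13.7 and 37.8 in S5 CM and 3.69, 2.76 and 27.4 in S14 CM. CDC45 gave a log2 fold change of -0.99 ± 1.03 (SE; adjusted p = 0.539) without the block and -1.94 ± 0.71 (adjusted p = 0.0457) with it.

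At the fork and in nucleotide supply the same libraries were low. PCNA, the sliding clamp of the polymerases, stood at 42.1, 38.5 and 60.2 CPM in EV mock, 31.9, 33.1 and 89.8 in S5 mock and 9.66, 10.1 and 64.2 in S14 mock. In conditioned medium PCNA stood at 47.9, 48.1 and 64.6 CPM in EV CM, 34.1, 44.7 and 105 in S5 CM and 11.7, 11.0 and 75.7 in S14 CM. The S14 libraries 1 and 2 hardly differed between the media for PCNA, unlike those of TYMS. TYMS, the thymidylate synthase, stood at 68.9, 60.3 and 130.2 CPM in EV mock, 46.2, 47.2 and 182 in S5 mock and 4.73, 3.81 and 99.2 in S14 mock. Its conditioned medium levels were 78.5, 75.5 and 134 CPM in EV CM, 50.7, 72.5 and 206 in S5 CM and 15.9, 17.0 and 122 in S14 CM. TYMS was therefore several times higher in S14 CM 1 and 2 than in S14 mock 1 and 2, while PCNA was nearly level. In GENCODE 29, 46.6% of the exonic bases of TYMS overlap genes on the opposite strand, and the strand setting of the counting is not given. The same holds for 37.1% of CCNE2, 23.6% of MCM2, 16.8% of CDK2, 15.9% of FOXM1 and 12.5% of PLK1, and 20.2% of RRM2 and 10.2% of BUB1B overlap another gene on the same strand, so that their counts may hold reads of those genes. RRM2, the regulated subunit of ribonucleotide reductase, stood at 90.0, 79.3 and 157 CPM in EV mock, 46.7, 52.0 and 178 in S5 mock and 16.0, 11.4 and 132 in S14 mock, and in conditioned medium at 93.7, 82.0 and 171 CPM in EV CM, 56.6, 65.1 and 191 in S5 CM and 29, 28.4 and 158 in S14 CM. Its partner subunit RRM1 came next after CDK2 among the smallest differences of the class in mock medium, -0.61 ± 0.61 (SE; adjusted p = 0.52) and -0.87 ± 0.21 (adjusted p = 0.0042) with the block. S14 mock against EV mock gave PCNA a log2 fold change of -0.74 ± 0.78 (SE; adjusted p = 0.545) without the block and -1.27 ± 0.44 (adjusted p = 0.0364) with it. For TYMS it was -1.27 ± 1.06 (SE; adjusted p = 0.436) without the block and -2.30 ± 0.62 (adjusted p = 0.0112) with it. RRM2 had -1.04 ± 0.88 (SE; adjusted p = 0.443) without the block and -1.72 ± 0.41 (adjusted p = 0.00561) with it.

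**Figure D3:**
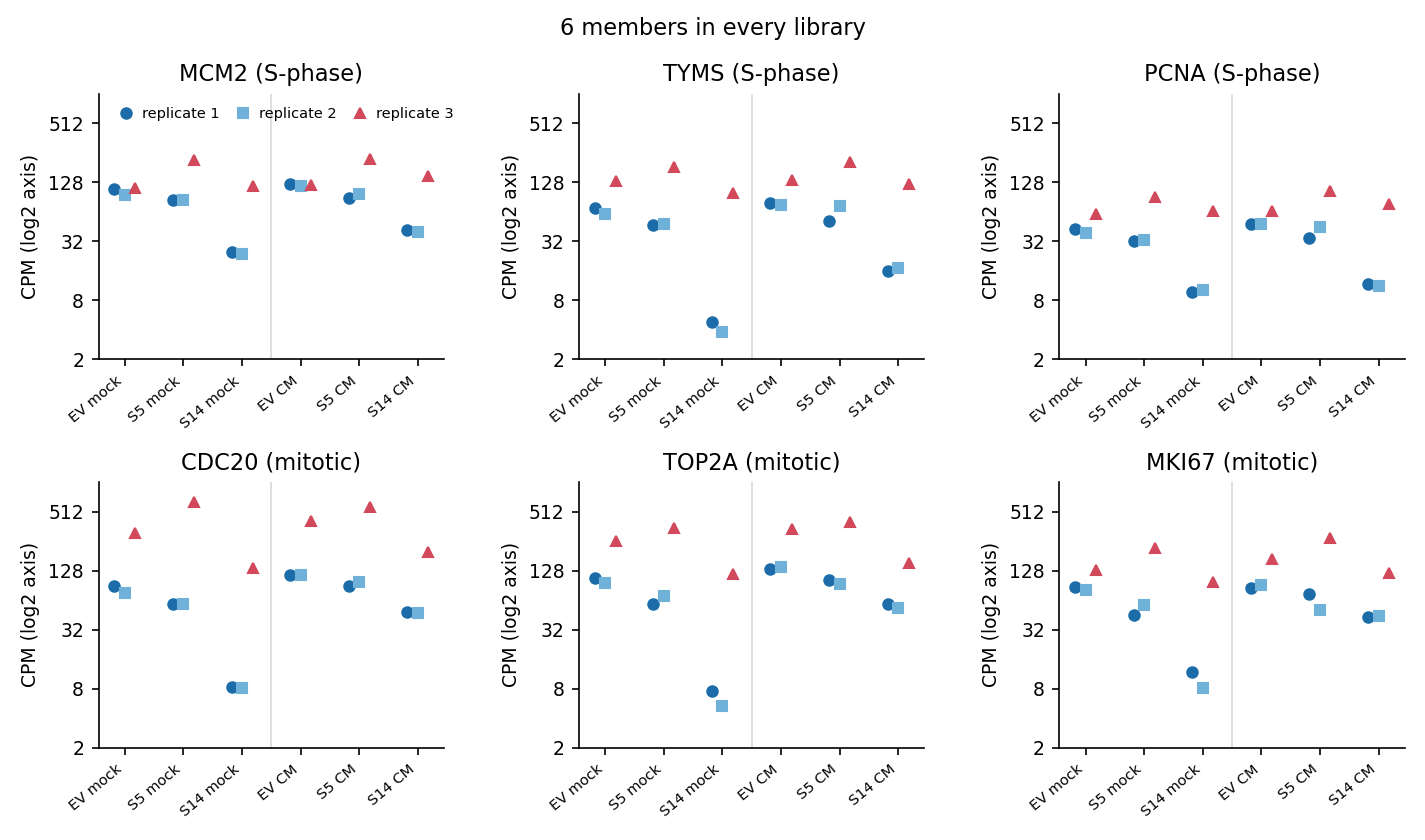
CPM on a log2 axis of 3 S-phase members (MCM2, TYMS and PCNA, upper row) and 3 mitotic members (CDC20, TOP2A and MKI67, lower row) in each of the 18 libraries, with replicate number as symbol. In S14 mock, replicates 1 and 2 lie far below replicate 3 in all 6 panels, and in S14 CM the mitotic members of replicates 1 and 2 lie higher than in S14 mock.

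Among the mitotic members, the transcription factors are given first. FOXM1, which drives genes of G2 and M phase, stood at 21.9, 18.4 and 43.7 CPM in EV mock, 11.7, 11.2 and 68.0 in S5 mock and 1.27, 1.24 and 27.5 in S14 mock. In conditioned medium FOXM1 stood at 24.8, 21.4 and 51.0 CPM in EV CM, 18.3, 16.2 and 75.5 in S5 CM and 6.12, 5.02 and 33.9 in S14 CM. MYBL2, the partner of the MuvB complex, stood at 64.9, 51.3 and 83.1 CPM in EV mock, 37.7, 38.6 and 145 in S5 mock and 5.42, 2.83 and 63.3 in S14 mock, and in conditioned medium at 61.1, 55.7 and 84.9 CPM in EV CM, 40.5, 50.2 and 163 in S5 CM and 12.3, 11.9 and 91.1 in S14 CM. For both genes S14 mock 1 and 2 were the lowest libraries of all 18, and S14 mock 3 lay inside the range of EV mock. The log2 fold change of S14 mock against EV mock was, for FOXM1, -1.48 ± 1.10 (SE; adjusted p = 0.375) without the block and -2.40 ± 0.53 (adjusted p = 0.00336) with it. MYBL2 had -1.48 ± 1.00 (SE; adjusted p = 0.327) without the block and -2.43 ± 0.61 (adjusted p = 0.00746) with it. CDK1, the kinase that starts mitosis, stood at 18.5, 16.7 and 43.8 CPM in EV mock, 14.1, 17.0 and 67.0 in S5 mock and 2.05, 1.49 and 41.6 in S14 mock. Its conditioned medium levels were 22.5, 21.5 and 54.5 CPM in EV CM, 20.2, 24.9 and 71.5 in S5 CM and 12.0, 11.7 and 49.4 in S14 CM. CCNB1, its partner cyclin B1, stood at 19.3, 15.4 and 85.8 CPM in EV mock, 14.5, 14.1 and 132 in S5 mock and 5.91, 4.68 and 49.6 in S14 mock, and in conditioned medium at 30.1, 31.3 and 113 CPM in EV CM, 24.3, 25.8 and 132 in S5 CM and 20.4, 16.5 and 59.97 in S14 CM. The libraries numbered 3 were all higher than the other 12 for CDK1 and CCNB1. For CDK1 the log2 fold change was -0.81 ± 1.02 (SE; adjusted p = 0.624) without the block and -1.64 ± 0.52 (adjusted p = 0.026) with it. For CCNB1 it was -1.002 ± 1.10 (SE; adjusted p = 0.564) without the block and -1.31 ± 0.28 (adjusted p = 0.00247) with it.

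The kinases and the anaphase machinery had similar profiles. PLK1, a kinase of spindle assembly, stood at 19.7, 14.9 and 46.2 CPM in EV mock, 12.8, 10.6 and 92.3 in S5 mock and 4.59, 4.27 and 23.2 in S14 mock. In conditioned medium PLK1 stood at 23.2, 22.5 and 67.3 CPM in EV CM, 16.7, 22.1 and 96.7 in S5 CM and 13.1, 11.7 and 36.0 in S14 CM. AURKB, the kinase of the chromosomal passenger complex, stood at 7.11, 6.40 and 12.8 CPM in EV mock, 3.93, 2.80 and 21.6 in S5 mock and 0.390, 0.412 and 11.4 in S14 mock, and S14 mock 1 and 2 had 8 raw counts each. Its conditioned medium levels were 6.91, 7.83 and 15.1 CPM in EV CM, 6.58, 6.78 and 21.4 in S5 CM and 2.66, 3.46 and 14.4 in S14 CM. BIRC5, which encodes survivin, a partner of AURKB in the same complex, stood at 27.3, 24.1 and 80.0 CPM in EV mock, 17.3, 17.0 and 139 in S5 mock and 1.66, 1.39 and 59.3 in S14 mock, and in conditioned medium at 38.3, 40.05 and 105 CPM in EV CM, 30.9, 39.5 and 144 in S5 CM and 12.9, 13.6 and 72.8 in S14 CM. S14 mock 1 and 2 were the lowest libraries for all 3 genes, and S14 mock and EV mock overlapped for each. PLK1 had a log2 fold change in S14 mock against EV mock of -1.33 ± 0.94 (SE; adjusted p = 0.344) without the block and -1.63 ± 0.29 (adjusted p = 0.000655) with it. AURKB had -1.10 ± 1.06 (SE; adjusted p = 0.505) without the block and -1.93 ± 0.59 (adjusted p = 0.0201) with it. BIRC5 had -1.08 ± 1.22 (SE; adjusted p = 0.579) without the block and -2.14 ± 0.60 (adjusted p = 0.0136) with it. CDC20, the activator of the anaphase-promoting complex, stood at 88.9, 74.8 and 313 CPM in EV mock, 58.5, 57.7 and 636 in S5 mock and 8.35, 8.19 and 136 in S14 mock. Conditioned medium libraries held 117, 115 and 414 CPM in EV CM, 88.7, 98.2 and 566 in S5 CM and 48.3, 47.0 and 196 in S14 CM. Its replicate 3 libraries exceeded every library of replicates 1 and 2. CDC20 gave -1.65 ± 1.21 (SE; adjusted p = 0.369) without the block and -2.45 ± 0.41 (adjusted p = 0.000525) with it.

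TOP2A, the topoisomerase that untangles sister chromatids, stood at 108, 95.8 and 258 CPM in EV mock, 58.4, 70.1 and 345 in S5 mock and 7.52, 5.30 and 119 in S14 mock. In conditioned medium TOP2A stood at 134, 140.2 and 341 CPM in EV CM, 104, 93.1 and 399 in S5 CM and 58.3, 53.0 and 153 in S14 CM. MKI67, which encodes the Ki-67 protein that coats mitotic chromosomes, stood at 87.3, 82.0 and 129 CPM in EV mock, 44.9, 57.3 and 217 in S5 mock and 11.9, 8.13 and 97.4 in S14 mock, and in conditioned medium at 85.1, 90.9 and 169.7 CPM in EV CM, 73.3, 50.2 and 272 in S5 CM and 42.6, 44.1 and 121 in S14 CM. For both genes S14 mock 1 and 2 were the lowest of the 18 libraries, and S14 mock 3 lay within the range of EV mock. TOP2A had the largest difference of the mitotic members between S14 mock and EV mock, -1.81 ± 1.03 (SE; adjusted p = 0.239) without the block and -2.67 ± 0.51 (adjusted p = 0.00138) with it. MKI67 had -1.35 ± 0.87 (SE; adjusted p = 0.302) without the block and -2.07 ± 0.45 (adjusted p = 0.00312) with it. ANLN, which builds the cleavage ring, followed TOP2A with -1.68 ± 1.01 (SE; adjusted p = 0.265) and -2.47 ± 0.43 (adjusted p = 0.00069) with the block.

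CKS2 and NUSAP1 had the smallest differences among the mitotic members. CKS2, a small binding partner of CDK1, stood at 9.01, 7.70 and 16.3 CPM in EV mock, 8.12, 7.21 and 31.1 in S5 mock and 6.74, 5.46 and 24.2 in S14 mock. Its levels in conditioned medium were 7.17, 7.53 and 16.6 CPM in EV CM, 6.26, 8.65 and 25.1 in S5 CM and 7.08, 7.57 and 13.7 in S14 CM. In replicate 3 of mock medium S14 exceeded EV for CKS2, and the log2 fold change over the groups was 0.14 ± 0.68 (SE; adjusted p = 0.911). NUSAP1, a spindle protein, stood at 0.620, 0.557 and 0.532 CPM in EV mock, 0.982, 0.568 and 0.610 in S5 mock and 0.342, 0.463 and 0.535 in S14 mock, and at 1.04, 0.505 and 1.05 CPM in EV CM, 0.768, 0.961 and 1.01 in S5 CM and 0.959, 0.803 and 0.759 in S14 CM. Its raw counts were low, with 7 to 26 in the 18 libraries, and those numbered 3 did not stand above the others. In GENCODE 29, 62.2% of the exonic bases of NUSAP1 overlap another gene model on the same strand, AC087721.2, which the table lists at 0 counts in all 18 libraries. Whether reads shared by both models were left out of the counts was not tested, so the level of NUSAP1 is uncertain.

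The comparison of S14 with EV asked whether the Siglec-14 line differed from its vector control. In mock medium no member passed the edgeR quasi-likelihood test (adjusted p under 0.05 over 17851 genes) in the fit with 1 mean per group, although 20.0% of all genes tested did. All 26 S-phase estimates and 28 of 29 mitotic estimates were below 0, with medians of -0.93 and -1.33 against -0.02 over all genes. 1 S-phase and 0 mitotic members had an unadjusted p under 0.05, and DESeq2 called 0 of each. The S-phase member was POLE, the catalytic subunit of polymerase epsilon, at -0.91 ± 0.39 (SE; adjusted p = 0.117), which stood at 77.0, 72.7 and 72.9 CPM in EV mock and 28.7, 27.7 and 61.6 in S14 mock. POLE was the only member whose S14 mock and EV mock libraries did not overlap, and it is named after its values were seen. With the replicate number as a block, 24 S-phase and 27 mitotic members were called lower, where 18.6% of all genes were. The members without a call were CDK2, MCM5, CKS2 and NUSAP1. The medians were then -1.48 and -1.99. The block fit takes the shift of a replicate number as shared by all lines. The interaction test below does not bear this out for the 26 S-phase and 13 mitotic members it called for S14 against EV. For those members a block estimate is 1 value for unlike replicates.

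Within replicate number, the median log2 ratio of S14 mock to EV mock over the S-phase members was -2.28, -2.49 and -0.06 in replicates 1, 2 and 3, and over the mitotic members -3.07, -3.14 and -0.74. The S-phase difference of replicates 1 and 2 was not seen in the median of replicate 3, and the mitotic median was nearer to 0 there. S14 was below EV in all 3 replicates for 16 S-phase and 27 mitotic members, and above EV in all 3 for none of the 55. With replicates 1 and 2 alone, 26 S-phase and 28 mitotic members were called lower by the same test, where 27.7% of genes were, with medians of -2.48 and -3.16. That fit has 2 libraries per group, and replicate 3 was left out of it with earlier results of these data known. Leaving out the single library S14 mock replicate 3 from the fit with 1 mean per group gave 22 S-phase and 21 mitotic members called lower. For fits that leave out 1 library, here and below, the share of all genes called was not computed. Whether the members moved more than other genes in those fits was therefore not tested.

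In conditioned medium the S14 to EV ratio in replicates 1 and 2 was nearer to 0 than in mock medium, more so for the mitotic members. No member was called in the fit with 1 mean per group (11.1% of genes called; 0 members of either class with an unadjusted p under 0.05; 0 by DESeq2), with medians of -0.69 and -0.90. The block fit called 8 S-phase and 14 mitotic members lower, against 10.6% of genes. Within replicate number the median log2 ratio was -1.94, -1.84 and 0.13 for the S-phase and -1.04, -1.10 and -0.71 for the mitotic members. The mitotic medians were thus alike in the 3 replicates, at about 1 log2 unit or less below EV, while the S-phase median changed sign in replicate 3. S14 was below EV in all 3 replicates for 9 S-phase and 26 mitotic members. Replicates 1 and 2 alone gave 26 and 27 members called lower, with 23.0% of genes called in that direction. Without S14 CM replicate 3, the fit with 1 mean per group called 2 S-phase members lower.

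**Figure D4:**
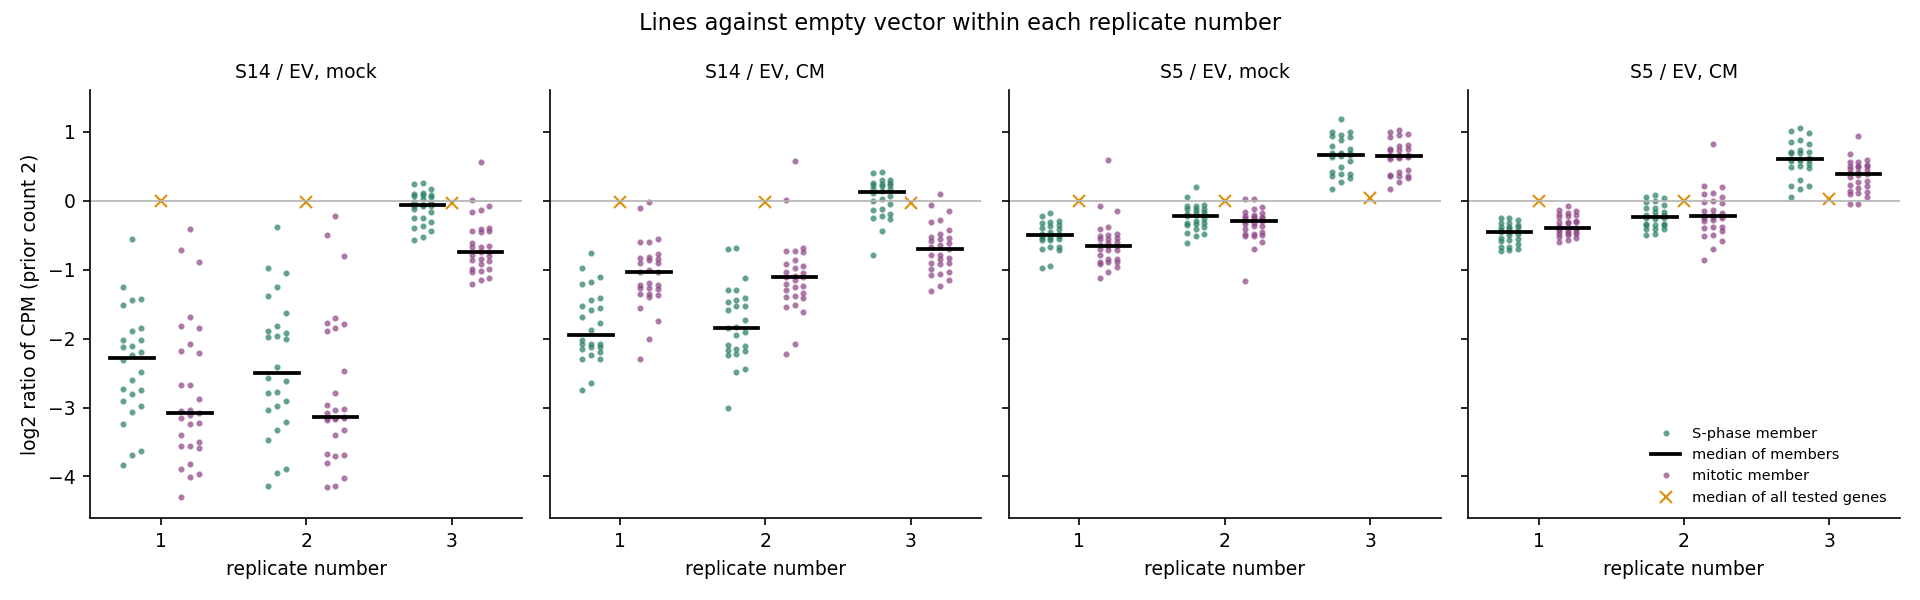
Log2 ratio of CPM between lines within each replicate number: S14 over EV in mock and conditioned medium and S5 over EV in both media, 1 point per member, with a black bar at the median of each class and a cross at the median of all tested genes. The S14 points of replicates 1 and 2 lie well below 0, whereas in replicate 3 the S-phase medians are -0.06 and 0.13 and the mitotic medians -0.74 and -0.71.

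Against the S5 line, S14 was lower in every replicate. The fit with 1 mean per group again called no member in mock medium (21.5% of genes called; 2 S-phase and 0 mitotic members with an unadjusted p under 0.05; 0 by DESeq2) or in conditioned medium (13.8% of genes; 1 and 0 members; 0 by DESeq2). The block fit called 25 S-phase and 26 mitotic members lower in mock medium, against 20.0% of genes, and 8 and 11 in conditioned medium, against 12.2%. The median log2 ratios of S14 to S5 in mock medium were -1.79, -2.19 and -0.75 for the S-phase and -2.23, -2.80 and -1.30 for the mitotic members, and in conditioned medium -1.41, -1.63 and -0.53 and -0.75, -0.86 and -1.08. In mock medium all 55 members were below S5 in all 3 replicates, and in conditioned medium 26 S-phase and 27 mitotic members were. Replicates 1 and 2 alone gave 26 S-phase and 27 mitotic members called lower in each medium, with 27.4% of genes called lower in mock and 22.2% in conditioned medium. Without S14 mock replicate 3 the fit with 1 mean per group called 23 and 24 members lower in mock medium, and without S14 CM replicate 3 it called 4 S-phase members lower in conditioned medium. The members with an unadjusted p under 0.05 were POLE and CDT1 in mock medium and POLE in conditioned medium.

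The S5 line lay below EV in replicates 1 and 2 and above it in replicate 3. The median log2 ratio of S5 to EV in mock medium was -0.50, -0.21 and 0.67 for the S-phase and -0.66, -0.29 and 0.65 for the mitotic members, and in conditioned medium -0.45, -0.24 and 0.61 and -0.39, -0.22 and 0.39. No S-phase member had the same sign in all 3 replicates in either medium, and 1 mitotic member in each medium did, NUSAP1 higher in mock and TTK, a spindle checkpoint kinase, lower in conditioned medium. The edgeR fit with 1 mean per group called no gene at all in either medium, and no member had an unadjusted p under 0.05; DESeq2 called 0 members. The medians of the edgeR fit over the members, S-phase then mitotic, were 0.12 and 0.26 log2 units in mock medium and 0.12 and 0.14 in conditioned medium. With the replicate block they were below 0, at -0.08 and -0.11 in mock and -0.07 and -0.10 in conditioned medium. The block fit called 0 members in either medium, with none at an unadjusted p under 0.05, where 0.0168% of genes were called in mock medium and 0 in conditioned medium. In replicates 1 and 2 alone, 11 S-phase and 13 mitotic members were called lower in mock medium, where 0.909% of genes were called lower. In conditioned medium these counts were 10 and 3 (ANLN, TOP2A and CENPF), with 0.948% of genes. Examples by smallest p were RRM2 with -0.79 ± 0.11 (SE; adjusted p = 0.000426) and ANLN with -0.76 ± 0.12 (SE; adjusted p = 0.000755) in mock medium. In conditioned medium UHRF1, which maintains DNA methylation at the fork, had -0.54 ± 0.11 (SE; adjusted p = 0.00844), and ANLN had -0.54 ± 0.12 (SE; adjusted p = 0.0123). These genes were named after their values were seen.

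Conditioned medium was compared with mock medium within each line. In EV cells the median log2 ratio was 0.08, 0.16 and 0.10 for the S-phase and 0.24, 0.42 and 0.40 for the mitotic members. In S5 cells these were 0.13, 0.16 and 0.06 and 0.51, 0.55 and 0.09. In S14 cells they were 0.58, 0.69 and 0.26 and 1.97, 2.12 and 0.34. The mitotic medians were above those of the S-phase members in every line and replicate, and the largest were in S14 replicates 1 and 2. In the fit with 1 mean per group no member was called in EV (0.00560% of genes called), S5 (0.00560%) or S14 cells (0.0504%), with 0 members at an unadjusted p under 0.05 except NUSAP1 in S14 cells, a gene of few reads. DESeq2 called 0 members in the 3 lines.

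In S14 cells the block fit called 13 mitotic and 0 S-phase members higher in conditioned medium, where 5.50% of genes were called higher. Over the mitotic members, replicate 3 lay above the mean of replicates 1 and 2 by a median of 3.70 log2 units in S14 mock. In S14 CM that median was 1.73, while the block takes the shift as shared by all groups. A block estimate here is thus 1 value for unlike replicates. The mitotic members called were CCNA2, CCNB1, CCNB2, PLK1, CDC20, UBE2C, TPX2, HMMR, CENPE, CENPF, KIF20A, KIF23 and TOP2A. Of these, CDC20 had a log2 fold change of 1.69 ± 0.40 (SE; adjusted p = 0.0233), CCNB1 of 1.23 ± 0.29 (adjusted p = 0.0207) and KIF20A, a motor of cytokinesis that was named after its values were seen, of 2.02 ± 0.53 (adjusted p = 0.0321). KIF20A stood at 0.927, 0.618 and 18.3 CPM in S14 mock and 10.7, 9.63 and 27.3 in S14 CM. Its level in replicates 1 and 2 of S14 CM was near that of EV mock, which held 11.5, 9.19 and 32.1. In EV CM, the control in the same medium, KIF20A stood at 19.5, 19.8 and 51.3 CPM, above S14 CM in each replicate. Across replicates, 22 S-phase and 28 mitotic members were higher in S14 CM than in S14 mock in all 3. The fit with 1 mean per group moved with the libraries numbered 3 of both groups. Without S14 mock replicate 3 it called 6 S-phase and 9 mitotic members higher, and without S14 CM replicate 3 it called none and the estimate was below 0 for 15 of the 18 genes that the naming rule chose by role.

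Replicates 1 and 2 alone, 2 libraries per group, gave 17 S-phase members higher and 1 lower and 27 mitotic members higher in S14 cells, where 21.7% of genes were called higher and 23.6% lower. Among these genes, named after their values were seen, the member called lower was MCM5, another subunit of the helicase ring, at -0.36 ± 0.10 (SE; adjusted p = 0.00453). The licensing genes CDT1 at 1.6 ± 0.16 (SE; adjusted p = 5e-09) and MCM2 at 0.68 ± 0.10 (SE; adjusted p = 2.55e-06) were among those called higher. PCNA at 0.14 ± 0.14 (SE; adjusted p = 0.434) and CDK2 at -0.10 ± 0.10 (SE; adjusted p = 0.445) were not called. By role, the median log2 fold change in that fit was 0.06 for the 5 replication fork genes, 0.60 for the 8 licensing genes and 1.08 for the 5 G1/S regulators. It was 1.42 for the 3 mitotic kinases, 2.12 for the 6 spindle and kinetochore genes and 2.57 for the 4 genes of cytokinesis. In EV cells the same 2 replicates gave 5 mitotic members called higher (KIF20A, CCNB1, CDC20, BIRC5 and TOP2A) and 0 S-phase members, with 1.24% of genes. In S5 cells 16 mitotic members and 1 S-phase member, E2F1 at 0.53 ± 0.12 (SE; adjusted p = 0.00484), were called higher, with 2.87% of genes.

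**Figure D5:**
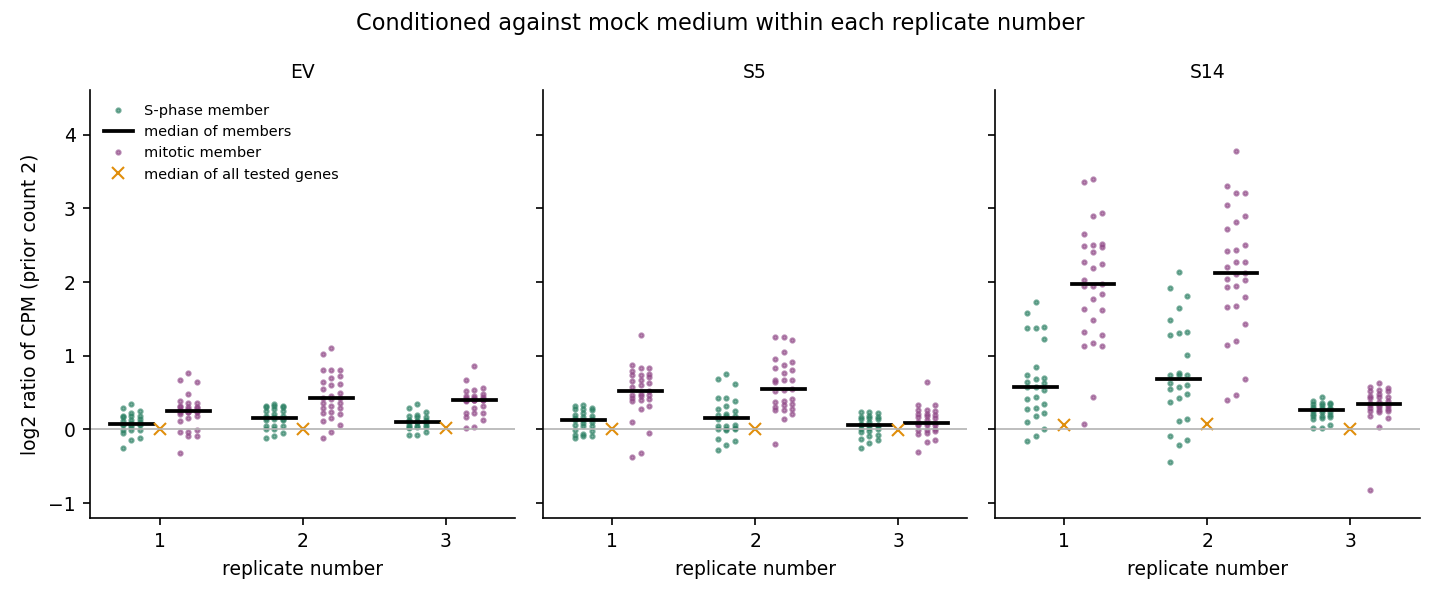
Log2 ratio of CPM in conditioned over mock medium within each replicate number for EV, S5 and S14 cells, 1 point per member, with a black bar at the median of each class and a cross at the median of all tested genes. The mitotic medians of S14 replicates 1 and 2 are 1.97 and 2.12, against 0.34 in replicate 3, and in EV cells the 3 mitotic medians are 0.24, 0.42 and 0.40.

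Whether the lines differed in their response to conditioned medium was tested as a difference of differences. With 1 mean per group no gene was called in any of the 3 contrasts, no member had an unadjusted p under 0.05, and DESeq2 called 0 members. The medians for S14 against EV were 0.24 for the S-phase and 0.40 for the mitotic members. The block fit also called no member, with CDC20, UBE2C and CENPE at an unadjusted p under 0.05 for S14 against EV, and CDC20 and UBE2C for S14 against S5. In replicates 1 and 2 alone, the response of S14 exceeded that of EV for 11 S-phase and 26 mitotic members, where 12.0% of genes were called in that direction and 24.3% in either. It exceeded that of S5 for 10 and 25 members, with 11.1% of genes called in that direction. TOP2A had a difference of 2.65 ± 0.18 (SE; adjusted p = 3.19e-10) and CDK1 of 2.37 ± 0.24 (SE; adjusted p = 8.23e-08) against EV. These p-values leave out replicate 3, which was known to differ, and so do not measure the spread it adds. In replicate 3 the median mitotic response was 0.34 in S14 and 0.40 in EV cells. For S5 against EV 0 members were called and 0 genes were called higher, with AURKB, TTK and BIRC5 at an unadjusted p under 0.05. These genes were named after their values were seen.

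The line by replicate interaction tested whether the S14 to EV difference was other in replicate 3 than in replicates 1 and 2, over both media. Replicate 3 was singled out with earlier results of these data known, so that this test measures a difference already seen. All 26 S-phase members were called higher, that is, the S14 to EV ratio was higher in replicate 3, where 17.8% of genes were called in either direction and 8.17% higher. Of the mitotic members 13 of 29 were. The medians were 2.03 and 1.18 log2 units against -0.01 over all genes. CDC45 had 3.36 ± 0.33 (SE; adjusted p = 1.47e-05), E2F1 2.90 ± 0.25 (SE; adjusted p = 4.46e-06) and PCNA 2.21 ± 0.15 (SE; adjusted p = 2.19e-07). MYBL2 had 2.87 ± 0.29 (SE; adjusted p = 2.56e-05) and FOXM1 2.27 ± 0.35 (SE; adjusted p = 0.000816), whereas CCNB1 with 0.36 ± 0.39 (SE; adjusted p = 0.579), PLK1 with 0.45 ± 0.27 (SE; adjusted p = 0.277), CDC20 with 1.18 ± 0.48 (SE; adjusted p = 0.117) and TOP2A with 1.56 ± 0.66 (SE; adjusted p = 0.137) were not called. For the S5 to EV difference 24 S-phase and 6 mitotic members were called higher in replicate 3, against 4.68% of genes. For the S14 to S5 difference 22 S-phase members were called higher, against 9.33%, and of the mitotic members MYBL2 and KIF11 were higher and AURKA was lower, against 9.85% of genes lower. Under upper-quartile factors AURKA was not called. The counts of mitotic members moved when 1 library was left out. The share of all genes called in those fits was not computed, so whether the members moved more than other genes was not tested. In the S14 to EV contrast 27 were called without S14 CM replicate 3, 8 without S14 mock replicate 1, 6 without EV CM replicate 3 and 4 without EV mock replicate 3. In the S5 to EV contrast the count of mitotic members ran from 0 without EV CM replicate 3 to 27 without S14 mock or S14 CM replicate 3, and that of S-phase members fell to 14 without EV CM replicate 3 and to 15 without EV mock or S5 mock replicate 3. In the S14 to S5 contrast 12 mitotic members were called without S14 mock replicate 3, 11 of them lower, and 22 without S14 CM replicate 3, all higher. Each of these fits keeps S14 replicate 3 in 1 medium only, a single library. The interaction is 1 term over both media, while the mitotic S14 to S5 medians moved in opposite directions in replicate 3. In replicates 1, 2 and 3 they were -2.23, -2.80 and -1.30 in mock and -0.75, -0.86 and -1.08 in conditioned medium. The mitotic S14 to EV medians were -3.07, -3.14 and -0.74 in mock and -1.04, -1.10 and -0.71 in conditioned medium. Their change in replicate 3 was thus mostly in mock medium. A member not called over both media may still differ in 1 of them.

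Other genes of the cell cycle were read in the same fits. Of 37 further S-phase genes and 40 further mitotic genes, 0 were called in S14 mock against EV mock with 1 mean per group, against 20.0% of all genes, and 27 and 38 were called lower with the block, against 18.6%. Their medians, -0.92 and -1.34 without the block, were close to those of the members. In the interaction 34 of 37 and 16 of 40 were called higher, against 8.17%. Of 17 genes of RB, E2F and DREAM control, 2 were called lower and 1 higher without the block, against 20.0% of all genes in either direction: TFDP2, a dimer partner of E2F, at -1.16 ± 0.24 (SE; adjusted p = 0.00346), RB1, the retinoblastoma protein itself, at -0.44 ± 0.13 (SE; adjusted p = 0.0258), and E2F5, a repressor E2F, at 1.43 ± 0.47 (SE; adjusted p = 0.0408). E2F2, an activator E2F, had 14.2, 12.1 and 16.2 CPM in EV mock and 0.342, 0.618 and 14.1 in S14 mock, the profile of the S-phase members, and was called lower with the block. Of 10 D-type cyclins, their kinases and CDK inhibitors tested, 3 were called higher and 1 lower without the block, also against 20.0%: CCND1, cyclin D1, at 2.27 ± 0.35 (SE; adjusted p = 0.000334), CCND2 at 2.22 ± 0.42 (SE; adjusted p = 0.00172), CDKN1A, the CDK inhibitor p21, at 0.84 ± 0.23 (SE; adjusted p = 0.0167), and CDKN2C, the inhibitor p18, at -1.27 ± 0.31 (SE; adjusted p = 0.00995). CCND1 stood at 58.6, 68.6 and 85.1 CPM in EV mock and 267, 275 and 479 in S14 mock, and CDKN1A at 509, 512 and 673 and 949, 988 and 1099. For both the groups did not overlap and S14 was above EV in replicate 3 as well as in replicates 1 and 2.

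Of 13 tested immature myeloid markers 7 were called lower in S14 mock against EV mock without the block, where 20.0% of all genes were called in either direction, among them MYB, a transcription factor of proliferating progenitors, at -3.99 ± 0.66 (SE; adjusted p = 0.000639). MYB stood at 66.9, 52.8 and 109 CPM in EV mock, 60.1, 67.2 and 246 in S5 mock and 3.51, 3.66 and 7.25 in S14 mock. In S14 mock 3 MYB was thus low while the S-phase members were level with EV. Of 14 macrophage markers 2 were called higher (CTSB and CTSD) and 4 lower (AIF1, CD14, FCER1G and LYZ), against the same 20.0%. Of the 13 mitochondrially encoded mRNAs 0 were called without the block, and 12 were called lower in replicates 1 and 2 alone, against 27.7% of all genes. The part of cell state in the levels of the members was not tested.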

How the data were processed

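RNA from 18 samples, 3 in each of 6 groups, was made into stranded mRNA libraries (TruSeq), as the labels' protocols state. The authors deposited raw read counts and TPM values per gene for 60623 genes. HISAT2 and GRCh38 are named in the submitters' processing notes. The counting program, annotation and strand setting: not given in the sources used here. Antisense and overlapping genes may therefore share reads. No column of per-sample values was left unused (0).

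The members and gene lists were chosen with earlier results of these data known. The deposited counts were tested with edgeR 4.0.16 in R 4.3.3 (TMM factors, a filter on low counts by group that left 17851 genes, quasi-likelihood test with robust spread, 1 mean per group over all 18 libraries). P-values were adjusted by Benjamini-Hochberg over all genes tested, and a gene was called under 0.05. The SE of an edgeR estimate is the absolute log2 fold change divided by the square root of the F statistic of that test. CPM uses TMM factors, and log2 CPM a prior count of 2. A fit on replicates 1 and 2 tested 17829 genes. Replicate 3 was left out of it with earlier results of these data known, so its p-values do not measure the spread that replicate 3 adds. The line by replicate 3 interaction has the replicate number as a block. The tests were tried on simulated counts with known changes, and signs and sizes were recovered. The interaction found fewer of the changed genes than the group and block fits, so that a member it did not call may still differ. In the simulation the spread was capped, and a replicate shift, where added, was the same in all groups apart from the known changes. Replicate 3 did not shift the members alike in all groups of the data, so the trial does not show how the fits perform on them. Alternatives were RLE or upper-quartile factors, no filter, DESeq2 1.42.0, the compared groups alone, each library or replicate number left out, and the replicate block. TPM values, as deposited, served only to compare levels between genes.

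The correlation of deviations from the group means was 0.155 to 0.794 (median 0.391) over the 45 pairs of libraries with the same number. It was -0.676 to 0.510 (median -0.372) over the 90 other pairs. The deviations of a group sum to 0, so both sets of values are tied, and the shift of replicate 3 enters both. Libraries numbered 1 and 2 were not looked at apart from replicate 3, so whether these numbers pair the samples was not tested. The labels give no batch or date for a number. Values in every library are given for 18 genes by role and, in S14 mock against EV mock, the 2 largest and 2 smallest differences of each class were named; members named in other comparisons had the smallest p or are said to be chosen after their values were seen.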

Additional observations from a re-analysis of the deposited data

Results flagged for a closer look

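The difference between the lines was not the same in replicate 3 as in replicates 1 and 2, by the interaction test described in the report. For S14 against EV the test called 26 S-phase and 13 mitotic members higher, where 8.17% of all genes were called higher. For S5 against EV it called 24 and 6 higher, against 4.68%. For S14 against S5 it called 22 S-phase and 2 mitotic members higher, against 9.33%, and 1 mitotic member lower, against 9.85%. Leaving out 1 library gave 4 to 27, 0 to 27 and 1 to 22 mitotic members in these contrasts, and the share of all genes called was not computed there. For S14 against S5, 11 of the 12 called without S14 mock replicate 3 were lower and all 22 called without S14 CM replicate 3 were higher. Replicate 3 was singled out with earlier results of these data known, so these counts describe a difference already seen.

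Of the S-phase members given in full, the S14 to EV log2 ratio was higher in replicate 3 by 2.90 for E2F1, 2.50 for CCNE2, 2.63 for CDC6 and 1.98 for MCM2. The same change was 3.36 for CDC45, 2.21 for PCNA, 1.94 for RRM2 and 2.78 for TYMS. Of the mitotic members it was 2.27 for FOXM1, 2.87 for MYBL2, 1.86 for CDK1, 2.19 for AURKB, 2.15 for BIRC5 and 1.63 for MKI67. CCNB1 at 0.36, PLK1 at 0.45, CDC20 at 1.18 and TOP2A at 1.56 were not called. Each value is 1 term over both media, so a member not called may still differ in 1 of them.

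What the libraries numbered 3 share besides their number is recorded in no label, and its part in these differences was not tested.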

How the results depend on the processing

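In the fit with 1 mean per group, RLE or upper-quartile factors, DESeq2 and the compared groups alone left the counts of members called at 0 in all 12 comparisons, and in the interaction the first 3 left them within 1.5 times. The block counts and those of replicates 1 and 2 were not recomputed under these settings. Under RLE or upper-quartile factors or a prior count of 0.5 none of the 54 class medians within replicate number changed sign (largest shift 0.148 log2 units). Without the filter on low counts, the interaction called 21 mitotic members for S14 against EV, 26 for S5 against EV and 11 for S14 against S5, the cause of which was not tested. The share of all genes called without the filter was not computed. With the replicate block the counts of members called moved to 24 S-phase and 27 mitotic (S14 mock against EV mock), 8 and 14 (S14 CM against EV CM), 25 and 26 (S14 mock against S5 mock), 8 and 11 (S14 CM against S5 CM) and 13 mitotic (S14 CM against S14 mock), and the block changed no other count by over 1.5 times.

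Leaving out 1 library or 1 replicate number gave counts, S-phase then mitotic, of 0 to 26 and 0 to 28 for S14 mock against EV mock, 0 to 26 and 0 to 27 for S14 CM against EV CM, 0 to 26 and 0 to 27 for S14 mock against S5 mock, and 0 to 26 and 0 to 27 for S14 CM against S5 CM. They were 0 to 11 and 0 to 13 for S5 mock against EV mock, 0 to 10 and 0 to 3 for S5 CM against EV CM, 0 to 0 and 0 to 5 for conditioned against mock medium in EV cells, 0 to 1 and 0 to 16 in S5 cells and 0 to 18 and 0 to 27 in S14 cells. The response differences had 0 to 11 and 0 to 26 for S14 against EV and 0 to 10 and 0 to 25 for S14 against S5. The interaction had 25 to 26 and 4 to 27 for S14 against EV, 14 to 26 and 0 to 27 for S5 against EV and 17 to 22 and 1 to 22 for S14 against S5. The highest count of each comparison of groups was that without replicate 3, except where all were 0. Of the fits that leave out libraries, only the fit without replicate 3 had the share of all genes called computed.

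Of the class medians of the fit with 1 mean per group, those of S5 against EV changed sign with the block, with the values in the report, and that of the S-phase members for the S5 against EV response difference went from -0.02 to 0.01 with the block and with upper-quartile factors. Alternatives for single genes were run for the 18 genes named by role in 3 comparisons, S14 against EV in each medium and S14 CM against S14 mock, and there the estimates changed sign only when a single library was left out. Over these fits the log2 fold change ran from -2.92 to 0.24 for CCNB1 in S14 mock against EV mock, and from -1.66 to 0.0894 for CCNB1 and -1.47 to 0.16 for CDK1 in S14 CM against EV CM. In S14 CM against S14 mock it ran from -0.42 to 4.09 for AURKB, -0.65 to 4.44 for BIRC5, -0.13 to 2.61 for CCNB1, -1.08 to 2.93 for CCNE2, -0.10 to 3.56 for CDC20, -1.36 to 3.58 for CDC45, -1.29 to 2.30 for CDC6, -0.35 to 3.78 for CDK1, -1.0 to 2.98 for E2F1, -0.85 to 3.59 for FOXM1, -0.45 to 1.66 for MCM2, -0.98 to 3.23 for MYBL2, -1.30 to 1.74 for PCNA, -0.89 to 2.39 for RRM2 and -1.13 to 3.60 for TYMS. Without a library numbered 3, only 1 of the groups compared still holds one. With 8 counts or fewer of AURKB and CDC25C in S14 mock replicates 1 and 2, depth limits their ratios there.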
